A study of Mus musculus with 18 samples.

Results

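The 38 genes described here encode molecular chaperones and the regulators and targets of the unfolded protein response. They were chosen by symbol and read on all 18 arrays of a study of mouse embryonic fibroblasts. Probes annotated to 35 of them were present, 60 probes in all, and 33 genes passed a detection filter, of 10902 genes tested on the arrays. No probe carried the name of Hsp90ab1, Dnajb11 or Hsf1 in the annotation used here. The probes of Canx and Dnaja1 were detected on too few arrays to be tested. The tested genes comprised 9 of 12 listed cytosolic heat shock genes, both mitochondrial chaperonin genes, 12 endoplasmic reticulum (ER) chaperone genes, 4 genes of ER-associated degradation, 2 transcription factors of the unfolded protein response and 4 genes of the ATF4 branch.

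The study set fibroblasts lacking DUSP5, a nuclear phosphatase of the kinases ERK1 and ERK2, against wild-type (WT) fibroblasts. All cells were primary, male, of the C57BL/6 strain, and came from littermate embryos of day 13.5. Each genotype was given 100 ng/ml of the phorbol ester TPA, an activator of protein kinase C, for 0, 1 or 3 h, giving KO 0 h, KO 1 h, KO 3 h, WT 0 h, WT 1 h and WT 3 h with 3 arrays each. No group received solvent alone, so each difference with TPA also holds any effect of solvent, handling and time. The labels do not say how many embryos or cultures a group's arrays came from. Each p-value therefore measures the spread between arrays alone, and that spread may be technical.

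Cells keep proteins folded with separate sets of chaperones in the cytosol, the mitochondrion and the ER. In the heat shock response, the factor HSF1 raises cytosolic chaperones of the HSP70, HSP90, HSP40 and small heat shock families when unfolded proteins build up in the cytosol. In the unfolded protein response, the ER sensors IRE1, ATF6 and PERK raise ER chaperones and degradation factors through XBP1 and cleaved ATF6, and PERK also leads to translation of ATF4, whose targets serve amino acid supply and the recovery of translation.

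The promoters are shown first, to set the known response elements of these branches beside the values. RefSeq promoter sequences on mouse build GRCm38.p6 were available for 30 of the 38 genes, 27 of them tested, and the 250 bases before the annotated start were searched on both strands. The ER stress response element, CCAAT and CCACG with 9 bases of any kind between them, was written in 7 of the 27 tested genes, against 0.130% of 27025 genes with a promoter in the same table. It is shown in capitals in windows of 30 bases, 5′ to 3′ on the strand of the gene. In Calr and Creld2 the capitals read as its reverse complement, and Hsp90b1 holds a further copy that is not printed.
Hspa5, chr2:34772020-34772049, plus strand: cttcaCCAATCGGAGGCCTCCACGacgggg
Calr, chr8:84847069-84847098, minus strand: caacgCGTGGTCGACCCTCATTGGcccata
Pdia6, chr12:17266486-17266515, plus strand: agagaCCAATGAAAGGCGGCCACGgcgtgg
Dnajc3, chr14:118937822-118937851, plus strand: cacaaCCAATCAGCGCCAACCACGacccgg
Creld2, chr15:88819515-88819544, plus strand: cttctCGTGGCGAGCCTCAATTGGtccaca
Syvn1, chr19:6046527-6046556, plus strand: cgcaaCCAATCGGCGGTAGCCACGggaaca
Hsp90b1, chr10:86705632-86705661, minus strand: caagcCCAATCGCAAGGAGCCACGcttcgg
For Hspa5, which encodes the ER HSP70 protein BiP, the whole 250 bases are given, with the same element in capitals 65 to 47 bases before the start.
Hspa5, chr2:34771840-34772089, plus strand: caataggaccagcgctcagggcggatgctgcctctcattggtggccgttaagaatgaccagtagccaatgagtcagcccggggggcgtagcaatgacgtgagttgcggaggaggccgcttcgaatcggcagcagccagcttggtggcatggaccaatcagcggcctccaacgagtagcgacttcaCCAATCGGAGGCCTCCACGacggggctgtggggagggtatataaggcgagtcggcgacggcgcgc
The second box, CCACG, alone, which lies within the ER stress response element and overlaps it, was written in 20 of the 27 genes, against 31.0% of all genes.

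The composite element that ATF4 binds with C/EBP factors, TGATGNAA, was written in Herpud1, Chac1 and Asns, against 3.91% of all genes. A heat shock element, GAA, TTC and GAA with 2 bases of any kind after the first and the second, was written in 2 genes, Hspd1 and Hspe1, which lie head to head and share 1 stretch of DNA, against 0.514% of all genes. The next 4 windows show these elements in capitals, the first and second as the reverse complement.
Herpud1, chr8:94386306-94386335, plus strand: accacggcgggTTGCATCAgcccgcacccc
Chac1, chr2:119351038-119351067, plus strand: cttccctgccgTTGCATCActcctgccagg
Asns, chr6:7693214-7693243, minus strand: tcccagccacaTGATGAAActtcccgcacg
Hspe1, chr1:55088056-55088085, plus strand: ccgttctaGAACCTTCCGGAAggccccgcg
Ppp1r15a, which rose early after TPA in both genotypes, held the cyclic AMP response element TGACGTCA 12 to 5 bases before its start. This palindrome was found in no other tested gene of the list and in 1.77% of all genes, and the 250 bases are given with it in capitals.
Ppp1r15a, chr7:45526269-45526518, minus strand: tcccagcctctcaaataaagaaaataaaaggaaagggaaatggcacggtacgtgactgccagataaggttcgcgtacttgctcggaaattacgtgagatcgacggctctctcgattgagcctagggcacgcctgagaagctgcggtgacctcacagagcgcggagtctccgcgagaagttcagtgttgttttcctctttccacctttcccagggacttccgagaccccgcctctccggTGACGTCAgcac
The NRF2 core TGACNNNGC was in 6 promoters, against 11.5% of all genes. A match describes letters in this window and is not evidence that a factor binds there, and a missing match says only that these letters are not in this window.

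Values below are log2 levels, the background-corrected and quantile-normalized array intensity on a log2 scale, and a difference of 1 is a doubling of signal. A gene is called when its limma adjusted p, Benjamini-Hochberg over all 10902 genes of the comparison, lies below 0.05. Because whole cultures were measured, fewer expressing cells and less RNA per cell cannot be told apart. Between 16675 and 18348 probes were detected per array, and mean raw intensity was 236 to 259 in KO 1 h arrays, against 277 to 286 in WT 1 h arrays. Dusp5 was lower in KO cells by 0.89, 0.97 and 0.65 on the log2 scale at 0, 1 and 3 h but was not at background. Its probe has no stated position relative to the deletion, so this checks the labels only in part. With 1 h of TPA the immediate early gene Egr1 was higher by 1.91 in KO and by 1.76 in WT cells. Of 13 fibroblast markers with a probe, 11 or 12 were detected on all arrays of each group. Of the markers of other cell types, 5 or 6 of 10 for macrophages and blood, 1 or 2 of 8 for endothelium, 3 or 4 of 8 for epithelium, 2 or 3 of 7 for muscle and 3 or 4 of 7 for neural and glial cells were detected on all arrays of a group. Those that reached this in no group were Ptprc, Itgam, Hba-a1 and Hbb-bt, Pecam1, Cdh5, Tie1, Erg and Vwf, Epcam, Krt5 and Krt14, Myod1, Myf5, Actc1 and Ttn, and Tubb3, Sox10 and Gfap.

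At 1 h of TPA, 3 of the 33 tested genes rose and 1 fell in KO cells. Of all genes 5.41% were called there, 2.56% higher and 2.85% lower. In WT cells 2 of the 33 rose and 1 fell, while of all genes 3.38% were called, 1.88% higher and 1.5% lower. At 3 h 3 rose and 4 fell in KO cells, against 18.4% of all genes called (8.25% higher, 10.1% lower). In WT cells 1 rose and 5 fell at 3 h, against 16% of all genes called (7.81% higher, 8.19% lower). The share of the 33 that changed at 3 h, 21.2% in KO and 18.2% in WT cells, was near that of all genes. Between 3 h and 1 h of TPA 0 rose and 4 fell in KO cells, against 13.9% of all genes called (7.48% higher, 6.45% lower), and 0 rose and 4 fell in WT cells, against 10.2% (5.43% higher, 4.8% lower). At 3 h the 9 cytosolic genes had 4 calls in KO and 5 in WT cells, and the 18 genes of the ER chaperones, ER degradation and the unfolded protein response factors had 3 in KO cells and 1 in WT cells. In each genotype the cytosolic calls were the rise of Bag3 and otherwise falls. These include the fall of Hspa1a, which the detection filter favoured, as given below. Hspa1a also enters the counts of falls above and the cytosolic medians given next. The median difference at 3 h was −0.22 in KO and −0.33 in WT cells for the cytosolic genes, −0.04 in KO and −0.01 in WT cells for the ER genes, and −0.02 in KO and 0.01 in WT cells for all genes. In all, 11 of the 33 genes were called in at least 1 of 12 comparisons. When arrays were scaled to the median of all probes instead of quantile normalized, the split at 1 h was 1 higher and 2 lower in KO and 0 higher and 2 lower in WT cells. At 3 h it was 0 higher and 4 lower in KO and 0 higher and 23 lower in WT cells, and the median difference of all genes was then −0.12 in KO and −0.31 in WT cells. Under it the falls of Dnajb1, Hspa8 and Herpud1 in WT cells at 3 h were −0.73, −0.63 and −0.86, more than 1.5 times those given below. In the authors' series matrix, their own table of normalized log2 values, and with quantile normalization without background correction some differences were more than 1.5 times smaller, and for those genes the series matrix value is given beside the result.

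**Figure D1:**
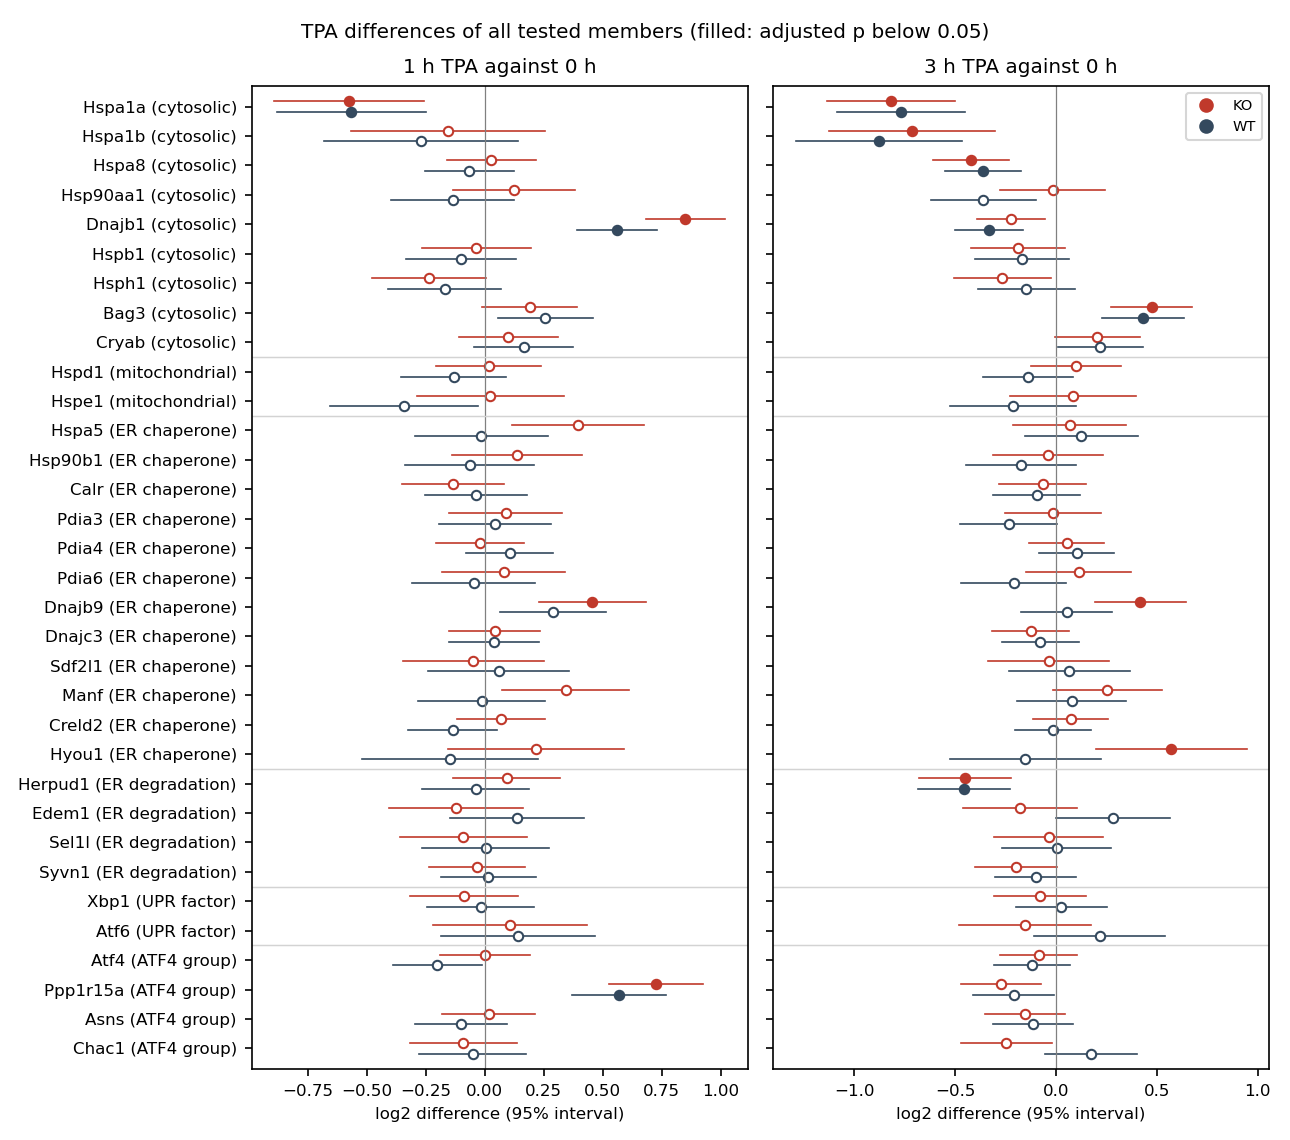
Log2 difference with its 95% interval for each of the 33 tested genes at 1 h of TPA against 0 h (left) and 3 h against 0 h (right), KO cells in red above WT cells in blue, grouped by compartment. Filled points have an adjusted p below 0.05: at 1 h Dnajb1 and Ppp1r15a stand to the right in both genotypes, and at 3 h Hspa1a, Hspa1b, Hspa8 and Herpud1 stand to the left in both.

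Among the cytosolic genes Dnajb1, which encodes an HSP40 co-chaperone that stimulates HSP70 proteins, rose at 1 h and was lower again at 3 h. The log2 level of Dnajb1 was 10.44, 10.43 and 10.46 in KO 0 h, 11.32, 11.31 and 11.25 in KO 1 h, and 10.21, 10.31 and 10.13 in KO 3 h arrays. WT arrays had 10.45, 10.49 and 10.42 at 0 h, 10.93, 11.01 and 11.09 at 1 h, and 10.10, 10.09 and 10.16 at 3 h. In both genotypes every 1 h array lay above every 0 h array and every 3 h array lay below them all. The rise at 1 h was 0.85 ± 0.08 in KO cells (SE, adjusted p = 2.5e-07) and 0.56 ± 0.08 in WT cells (adjusted p = 0.000113), a 1.80-fold rise in KO and a 1.47-fold rise in WT cells. From 1 h the 3 h level was lower by 1.07 in KO and by 0.89 in WT cells, and against 0 h it was lower by 0.33 in WT cells (adjusted p = 0.00653), whereas the KO difference of −0.22 missed the threshold (adjusted p = 0.0602). The 1 h rise in WT cells was not called under scaling to the median of all probes (0.33, adjusted p = 0.117). The genotypes' rises at 1 h differed by 0.29 (95% interval 0.05 to 0.53), which was not called (adjusted p = 0.80).

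The inducible HSP70 genes Hspa1a and Hspa1b, whose proteins are the classical products of the heat shock response, fell with TPA. Hspa1a had log2 levels of 5.30, 5.17 and 4.998 in KO 0 h, 4.61, 4.47 and 4.67 in KO 1 h, and 4.44, 4.25 and 4.32 in KO 3 h arrays. In WT cells they were 5.07, 5.03 and 5.65 at 0 h, 4.71, 4.39 and 4.95 at 1 h, and 4.60, 4.31 and 4.53 at 3 h. All treated arrays lay below the untreated arrays of their genotype, and the probe was not detected on any KO 1 h, KO 3 h or WT 3 h array or on 2 of 3 WT 1 h arrays. It passed the detection filter through the untreated arrays, where it was high, so the filter itself favoured a fall. The other probes of Hspa1a were detected on 0 and 2 arrays and were not kept. The measured differences at 3 h were −0.82 ± 0.15 in KO (adjusted p = 0.000464) and −0.77 ± 0.15 in WT cells (adjusted p = 0.00117). In the series matrix they were −0.25 in KO and −0.22 in WT cells, both still called (adjusted p = 0.00324 and 0.00872). In a group without detection, each array was also raised to at least its lowest normalized signal of any detected probe. Mean Hspa1a was then 1.41-fold lower in KO and 1.49-fold lower in WT cells at 3 h, and 1.40-fold lower in KO cells at 1 h. These folds are estimates from group means and not the limits of an interval. At 1 h the measured difference was −0.58 in KO cells (adjusted p = 0.0274) and −0.57 in WT cells (adjusted p = 0.0421), whereas in the series matrix it was −0.15 in KO and −0.16 in WT cells, neither called (adjusted p = 0.133 and 0.135). The KO call was lost without KO 0 h replicate 1 or 2 or any 1 of the KO 1 h arrays (adjusted p up to 0.136 over 26 alternatives). The WT call was lost without any of 7 arrays: WT 0 h replicate 3, WT 1 h replicate 1 or 2, WT 3 h replicate 3, KO 0 h replicate 2, KO 1 h replicate 1 or KO 3 h replicate 3 (adjusted p up to 0.285), and without WT 0 h replicate 3 the difference was −0.37.

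Hspa1b had log2 levels of 5.59, 5.66 and 5.06 in KO 0 h, 4.95, 5.44 and 5.45 in KO 1 h, and 4.52, 5.21 and 4.44 in KO 3 h arrays. WT levels were 5.70, 5.42 and 5.18 in WT 0 h, 4.91, 5.19 and 5.38 in WT 1 h, and 4.64, 4.53 and 4.49 in WT 3 h arrays. The WT 3 h arrays lay below all others of WT cells and were not detected, while 1 of 3 KO 3 h arrays was detected and overlapped the KO 0 h range. In WT cells the measured difference at 3 h was −0.88 ± 0.20 (adjusted p = 0.00351). With the WT 3 h arrays raised to the lowest detected signal as for Hspa1a, the fall between group means was 1.70-fold. The KO difference was −0.72 (adjusted p = 0.0135), and it was lost without KO 0 h replicate 1 or 2 or KO 3 h replicate 1 or 3, with adjusted p up to 0.083. In the series matrix the differences were −0.21 in KO and −0.25 in WT cells, both called. In a fit over probes, a second probe of Hspa1b fell at 3 h by 0.45 in KO cells and by 0.62 in WT cells. That probe was detected on only 7 of 18 arrays, with a mean log2 level of 4.68, so its differences include undetected signal. Both probes of Hspa1b could pass the detection filter through arrays where they were high, so the filter may have favoured a fall, as for Hspa1a. Hspa1a and Hspa1b are near-identical copies, so a probe named for one may also read the other and the values of the pair are uncertain gene by gene.

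Hspa8, the gene of the constitutive HSP70 protein HSC70, fell at 3 h in both genotypes. Levels were 12.76, 12.86 and 12.86 in KO 0 h, 12.90, 12.85 and 12.82 in KO 1 h, and 12.43, 12.44 and 12.36 in KO 3 h arrays. WT arrays read 12.87, 12.81 and 13.09 at 0 h, 12.82, 12.78 and 12.98 at 1 h, and 12.53, 12.54 and 12.60 at 3 h. Every 3 h array lay below the other arrays of its genotype, by 0.42 ± 0.09 on average against 0 h in KO cells (adjusted p = 0.00185) and by 0.36 ± 0.09 in WT cells (adjusted p = 0.00757). Without WT 0 h replicate 3 the WT fall missed the threshold (adjusted p = 0.0552), and against 1 h the fall was 0.45 in KO and 0.30 in WT cells, the WT call being lost without any of 5 arrays of WT 1 h or WT 3 h. Under scaling to the median of all probes neither fall against 1 h was called, with −0.37 in KO (adjusted p = 0.101) and −0.40 in WT cells (adjusted p = 0.0952). With the mean of all kept probes the WT fall against 0 h was 0.56. The other 2 kept probes fell at 3 h in WT cells by 0.89 and 0.42 (both called). In KO cells, in the same order, the first had a difference of −0.41 (adjusted p = 0.111) and the second was lower by 0.65 (called).

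Bag3, which encodes a co-chaperone that links HSP70 to selective autophagy, was the 1 cytosolic gene that rose at 3 h. Log2 levels were 11.28, 11.03 and 11.11 in KO 0 h, 11.27, 11.23 and 11.49 in KO 1 h, and 11.70, 11.55 and 11.59 in KO 3 h arrays. WT levels were 11.10, 11.05 and 11.11 at 0 h, 11.38, 11.28 and 11.36 at 1 h, and 11.64, 11.42 and 11.49 at 3 h. The 3 h arrays lay above all earlier arrays in each genotype, with the 1 h arrays between in WT cells and overlapping 0 h in KO cells. The rise at 3 h was 0.47 ± 0.10 in KO (adjusted p = 0.00114) and 0.43 ± 0.10 in WT cells (adjusted p = 0.00349). Neither was called under scaling to the median of all probes, where the difference was 0.42 in KO and 0.08 in WT cells. Relative to the median of all genes, which largely undoes that scaling, the difference was 0.54 in KO and 0.39 in WT cells.

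Apart from Cryab, given below, the remaining cytosolic genes were called in no comparison. Hsp90aa1, of the inducible HSP90, had differences at 3 h of −0.02 ± 0.12 in KO (adjusted p = 0.955) and −0.36 ± 0.12 in WT cells (adjusted p = 0.0535). Hsph1, of a nucleotide exchange factor for HSP70, had −0.27 in KO and −0.15 in WT cells, and Hspb1, of the small heat shock protein HSP25, had −0.19 in KO and −0.17 in WT cells. The mitochondrial chaperonin genes Hspd1 (HSP60) and Hspe1 (HSP10), the pair with the heat shock element shown above, had differences at 3 h of 0.10 and 0.08 in KO cells and of −0.14 and −0.22 in WT cells. At 1 h Hspe1 had −0.34 ± 0.15 in WT cells, with an unadjusted limma p of 0.0327 and an adjusted p of 0.311.

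**Figure D2:**
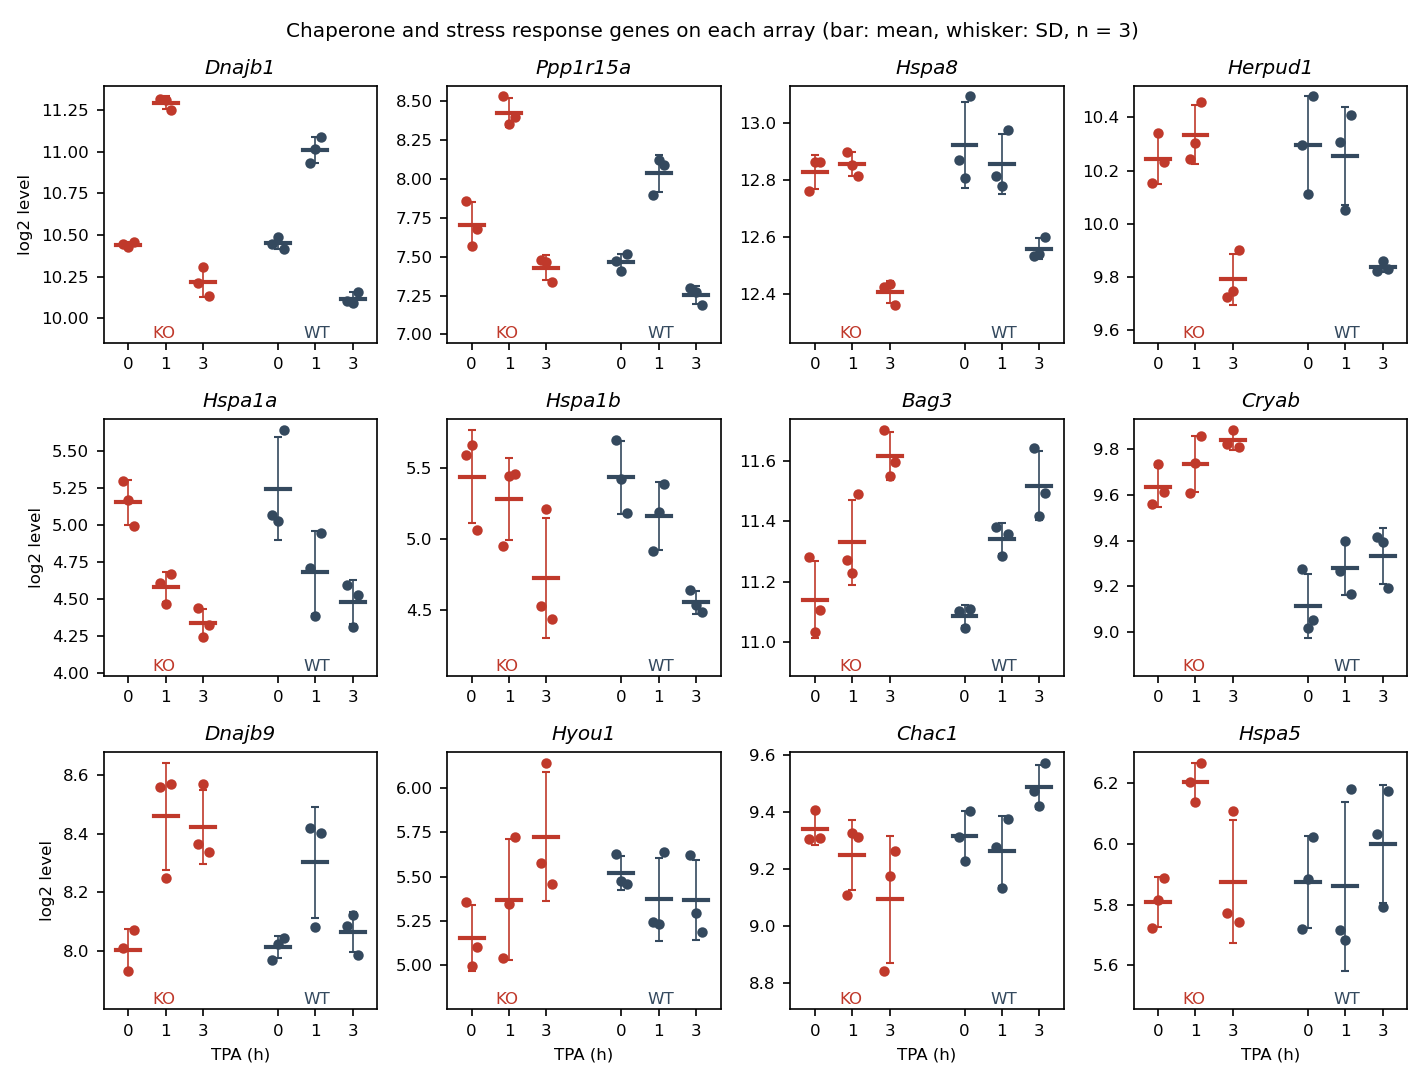
Log2 level of 12 genes on every array (points), with the mean (bar) and SD (whisker) of 3 arrays, KO in red left of WT in blue, each at 0, 1 and 3 h of TPA. Dnajb1 and Ppp1r15a peak at 1 h, Hspa8, Herpud1, Hspa1a and Hspa1b are low at 3 h, Bag3 is high at 3 h, and Cryab is higher in KO arrays at each time.

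Of the 12 tested ER chaperone genes, 2 rose at 3 h in KO cells, and in WT cells 0 were called at 3 h by limma, with 0 at an unadjusted p below 0.05. Of all genes 18.4% in KO and 16% in WT cells were called at 3 h, and in WT cells 27.9% had an unadjusted p below 0.05. Hspa5, the gene of BiP and a standard readout of the unfolded protein response, had log2 levels of 5.72, 5.81 and 5.89 in KO 0 h, 6.20, 6.14 and 6.27 in KO 1 h, and 5.77, 6.11 and 5.74 in KO 3 h arrays. In WT cells it had 5.72, 5.88 and 6.02 at 0 h, 5.72, 5.68 and 6.18 at 1 h, and 6.03, 5.79 and 6.17 at 3 h. The KO 1 h arrays lay above all KO 0 h and KO 3 h arrays, and the WT groups overlapped. The difference at 1 h was 0.39 ± 0.13 in KO cells (unadjusted p = 0.0084, adjusted p = 0.111) and −0.02 ± 0.13 in WT cells (adjusted p = 0.983). Their difference of 0.41 (95% interval 0.01 to 0.81) had an adjusted p of 0.834, so no change of Hspa5 was called. Hspa5 was read by 1 probe, detected on all 18 arrays but dim. Its mean log2 level was 5.94, against 11.55 for Hsp90b1 and 4.51 for the mostly undetected Manf. The 16 added before log2 shrinks differences of dim probes, so the missing call says little about BiP RNA.

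The 7 tested genes whose promoters hold the full ER stress response element were called in 0 of the 12 comparisons, in which between 0.0275% and 18.4% of all genes were called. Their TPA differences ran between −0.21 (Pdia6 in WT cells at 3 h) and 0.39 (Hspa5 in KO cells at 1 h), with a median SE of 0.10. Among them Hspa5 was read from low signal, as given above. Over the 7, the median difference at 1 h was 0.07 in KO and −0.04 in WT cells, and at 3 h −0.04 in KO and −0.10 in WT cells. At an unadjusted p below 0.05, Hspa5 passed in KO 1 h against 0 h, in KO 3 h against 1 h, in KO against WT at 1 h and in the genotype difference of the 1 h responses, and Pdia6 passed in KO against WT at 3 h. No more than 1 of the 7 thus passed in any comparison, against 5.87% to 28.3% of all genes. Hsp90b1 (GRP94), of the ER member of the HSP90 family, had 3 h differences of −0.04 in KO and −0.17 in WT cells, and the calcium-binding lectin chaperone gene Calr had −0.07 in KO and −0.10 in WT cells. Dnajc3, of an ER co-chaperone of BiP, had −0.13 in KO and −0.08 in WT cells, and Creld2, a gene known to respond to ER stress, had 0.07 in KO and −0.02 in WT cells. Syvn1, of the ubiquitin ligase HRD1, had −0.20 in KO and −0.10 in WT cells.

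Of the other ER chaperone genes, the protein disulfide isomerase genes Pdia3 and Pdia4 were called nowhere, with 3 h differences of −0.02 and 0.05 in KO cells and −0.24 and 0.10 in WT cells. Sdf2l1, whose protein is a partner of ER HSP40 proteins, had −0.04 in KO and 0.07 in WT cells. Manf, which encodes a secreted ER stress protein, was detected on 3 of 18 arrays, so its values give little. The degradation genes Sel1l and Edem1 had −0.04 and −0.18 in KO cells and 0.00 and 0.28 in WT cells at 3 h. Over all 22 genes called in no comparison, TPA differences ran from −0.36 to 0.39 with a median SE of 0.11.

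Herpud1, which encodes an ER membrane protein of the degradation machinery, was the 1 ER gene that fell with TPA. The arrays gave 10.15, 10.34 and 10.23 in KO 0 h, 10.24, 10.30 and 10.46 in KO 1 h, and 9.73, 9.75 and 9.90 in KO 3 h arrays. They gave 10.29, 10.11 and 10.48 in WT 0 h, 10.31, 10.05 and 10.41 in WT 1 h, and 9.82, 9.86 and 9.83 in WT 3 h arrays. All 3 h arrays lay below every earlier array of their genotype. The fall at 3 h against 0 h was 0.45 ± 0.11 in KO (adjusted p = 0.00515) and 0.46 ± 0.11 in WT cells (adjusted p = 0.00574), and both calls held in all 27 alternatives run. Against 1 h it was lower by 0.54 in KO and by 0.42 in WT cells, the WT call being lost without WT 1 h replicate 1 or 3 or WT 3 h replicate 1 or 3 (adjusted p up to 0.0984). The KO call against 1 h was lost under scaling to the median of all probes (−0.44, adjusted p = 0.0558). A second kept probe was lower by 0.39 at 3 h in KO cells (called) and had −0.27 in WT cells (adjusted p = 0.131).

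Dnajb9, the gene of the BiP co-chaperone ERdj4 and a known target of XBP1, was called higher with TPA in KO cells. Its levels were 8.01, 7.93 and 8.07 in KO 0 h, 8.56, 8.25 and 8.57 in KO 1 h, and 8.36, 8.57 and 8.34 in KO 3 h arrays. The WT arrays had 7.97, 8.02 and 8.04 at 0 h, 8.42, 8.08 and 8.40 at 1 h, and 8.09, 8.12 and 7.99 at 3 h. The 1 h arrays lay above the 0 h arrays in both genotypes, and at 3 h this was so in KO cells, with WT cells overlapping. The difference at 1 h was 0.45 ± 0.11 in KO (adjusted p = 0.0127) and 0.29 ± 0.11 in WT cells (adjusted p = 0.207), and at 3 h 0.42 in KO (adjusted p = 0.00877) and 0.05 in WT cells (adjusted p = 0.809). The genotypes' 3 h responses differed by 0.37 (95% interval 0.05 to 0.69), which was not called (adjusted p = 0.427), so the responses are not shown to differ. The 1 h call was lost without KO 0 h replicate 2 or KO 1 h replicate 1 or 3, the 3 h call without KO 3 h replicate 2, and both under scaling to the median of all probes (0.17 at 1 h, adjusted p = 0.443, and 0.25 at 3 h, adjusted p = 0.350). A second kept probe had 0.50 at 1 h and 0.49 at 3 h in KO cells, neither called (adjusted p = 0.121 at 1 h and 0.0569 at 3 h).

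Hyou1, which encodes a large ER HSP70 relative also known as GRP170, was called higher at 3 h in KO cells, with wide spread between arrays. Its log2 level was 5.36, 4.998 and 5.11 in KO 0 h, 5.04, 5.35 and 5.72 in KO 1 h, and 5.58, 6.14 and 5.46 in KO 3 h arrays. It was 5.63, 5.48 and 5.46 in WT 0 h, 5.24, 5.23 and 5.64 in WT 1 h, and 5.62, 5.30 and 5.19 in WT 3 h arrays. The KO 3 h arrays lay above the KO 0 h arrays, and the KO 0 h arrays were the lowest of the untreated ones. The difference at 3 h was 0.57 ± 0.18 in KO (adjusted p = 0.0297) and −0.15 ± 0.18 in WT cells (adjusted p = 0.632), and the responses differed by 0.72 (95% interval 0.20 to 1.25, adjusted p = 0.329). The KO call was lost without KO 3 h replicate 2, KO 0 h replicate 2 or KO 0 h replicate 3, and under 4 other settings, with adjusted p up to 0.190. It was 0.36 without KO 3 h replicate 2 and 0.19 in the series matrix (adjusted p = 0.0531).

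Neither transcription factor of the unfolded protein response was called by limma in any comparison, nor did either pass at an unadjusted p below 0.05, as 5.87% to 28.3% of all genes did by comparison. Xbp1, whose RNA is spliced by IRE1, had log2 levels of 11.30, 11.26 and 11.32 in KO 0 h, 11.34, 11.14 and 11.14 in KO 1 h, and 11.25, 11.26 and 11.13 in KO 3 h arrays. The WT arrays had 11.38, 11.36 and 10.96 in WT 0 h, 11.18, 11.32 and 11.15 in WT 1 h, and 11.37, 11.13 and 11.28 in WT 3 h arrays. Its TPA differences lay between −0.09 and 0.03, each ± 0.11, and these arrays give 1 level for the gene and do not separate its spliced form. Atf6, of the ER-anchored factor, had −0.15 in KO and 0.22 in WT cells at 3 h (± 0.16).

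In the ATF4 branch, Ppp1r15a (GADD34), whose protein brings a phosphatase to eIF2α and restores translation, rose at 1 h and fell again between 1 h and 3 h. It had 7.86, 7.57 and 7.68 in KO 0 h, 8.53, 8.35 and 8.39 in KO 1 h, and 7.48, 7.47 and 7.34 in KO 3 h arrays. In WT arrays the level was 7.47, 7.41 and 7.52 at 0 h, 7.90, 8.12 and 8.09 at 1 h, and 7.30, 7.28 and 7.19 at 3 h. The 1 h arrays were the highest and the 3 h arrays the lowest in both genotypes, without overlap. The rise at 1 h was 0.72 ± 0.10 in KO (adjusted p = 2.47e-05) and 0.57 ± 0.10 in WT cells (adjusted p = 0.000676). These are a 1.65-fold rise in KO and a 1.48-fold rise in WT cells. From 1 h the 3 h level was lower by 1.00 in KO and by 0.78 in WT cells. Under scaling to the median of all probes the 1 h rises were 0.45 in KO (adjusted p = 0.0543) and 0.26 in WT cells (adjusted p = 0.222) and were not called. Relative to the median of all genes, which largely undoes that scaling, they were 0.67 in KO and 0.50 in WT cells. The rises of the genotypes differed by 0.15 (95% interval −0.13 to 0.44, adjusted p = 0.917).

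Atf4 was called in no comparison. It had log2 levels of 10.82, 10.88 and 10.97 in KO 0 h, 10.82, 10.90 and 10.95 in KO 1 h, and 10.69, 10.84 and 10.89 in KO 3 h arrays. WT arrays had 10.86, 11.08 and 10.97 in WT 0 h, 10.71, 10.73 and 10.87 in WT 1 h, and 10.91, 10.77 and 10.87 in WT 3 h arrays. The groups overlapped in every comparison, and the differences at 1 h were 0.00 ± 0.09 in KO (adjusted p = 0.996) and −0.20 ± 0.09 in WT cells (adjusted p = 0.341). ATF4 protein is known to be set largely by translation, which these arrays do not measure. Asns, of asparagine synthetase, a standard ATF4 target, had 3 h differences of −0.15 in KO and −0.12 in WT cells, neither called.

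Between genotypes 3 of the 33 genes were called at any time. In KO against WT cells at 0 h 1 of the 33 genes was higher, against 1.85% of all genes called (0.963% higher, 0.89% lower). At 1 h 2 were higher, against 2.2% (1.09% higher, 1.11% lower), and at 3 h 1 was higher and 1 lower, against 4.97% (2.44% higher, 2.53% lower). In the mean of the times 2 were higher, against 11.4% (5.26% higher, 6.12% lower). These calls belonged to Cryab, Ppp1r15a and Chac1. Under scaling to the median of all probes the counts were 0 higher and 4 lower at 0 h, 0 at 1 h, 0 at 3 h, and 1 higher and 8 lower in the mean. The median difference of all genes was then −0.22 at 0 h, −0.22 at 1 h, −0.04 at 3 h and −0.16 in the mean.

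Cryab, which encodes the small heat shock protein αB-crystallin, was higher in KO cells at all times. Log2 levels of Cryab were 9.56, 9.73 and 9.61 in KO 0 h, 9.61, 9.74 and 9.86 in KO 1 h, and 9.82, 9.88 and 9.81 in KO 3 h arrays. WT cells had 9.28, 9.02 and 9.05 at 0 h, 9.27, 9.40 and 9.17 at 1 h, and 9.42, 9.39 and 9.19 at 3 h. At each time all KO arrays lay above all WT arrays. The difference was 0.52, 0.46 and 0.50 at 0, 1 and 3 h and 0.49 ± 0.06 in the mean, 1.41-fold (adjusted p = 7.4e-06). The mean kept its call in all 27 alternatives (0.29 to 0.52). The 0 h call was lost without WT 0 h replicate 2 or 3 or KO 0 h replicate 2, the 1 h call without WT 1 h replicate 1 or 3 or KO 1 h replicate 2 or 3, and all the single times under scaling to the median of all probes (0.21, 0.17 and 0.50 at 0, 1 and 3 h, adjusted p = 0.280, 0.394 and 0.0543). Cryab is also abundant in muscle. Of 7 muscle markers with a probe 3 were detected on all arrays of KO 0 h and 2 in every other group, Myog in KO 0 h alone. Myod1, Myf5, Actc1 and Ttn were not detected on all arrays of any group. Summed raw intensity was 820 to 1015 in KO arrays, against 928 to 1193 in WT arrays. These sums are not normalized and include undetected probes. Over all probes, mean raw intensity was 235.7 to 313.5 in KO and 262.3 to 357.1 in WT arrays. A part of muscle cells in the Cryab difference was not tested.

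Ppp1r15a, given above, was also higher in KO cells, by 0.39 ± 0.10 at 1 h (adjusted p = 0.0342) and by 0.27 ± 0.06 in the mean of the times (adjusted p = 0.00248), with all KO arrays above all WT arrays at each time. The 1 h call was lost without WT 1 h replicate 1 or 3 or KO 1 h replicate 1 or 3. Under scaling to the median of all probes the differences were 0.09 at 1 h and 0.04 in the mean, neither called (adjusted p = 0.694 at 1 h and 0.748 in the mean).

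Chac1, which encodes a glutathione-degrading enzyme and is a known target of ATF4 and CHOP, was lower in KO cells at 3 h. Its log2 level was 9.31, 9.41 and 9.31 in KO 0 h, 9.11, 9.33 and 9.31 in KO 1 h, and 8.84, 9.18 and 9.26 in KO 3 h arrays. WT cells had 9.31, 9.23 and 9.40 in WT 0 h, 9.28, 9.13 and 9.38 in WT 1 h, and 9.47, 9.42 and 9.57 in WT 3 h arrays. The KO 3 h arrays lay below both the KO 0 h and the WT 3 h arrays. The difference between genotypes at 3 h was −0.39 ± 0.11 (adjusted p = 0.039). It was lost without any 1 of 6 arrays (KO 0 h replicate 3, KO 3 h replicate 1 or 2, or any WT 3 h array) and under scaling to the median of all probes, where its size was −0.42 (adjusted p = 0.254).

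**Figure D3:**
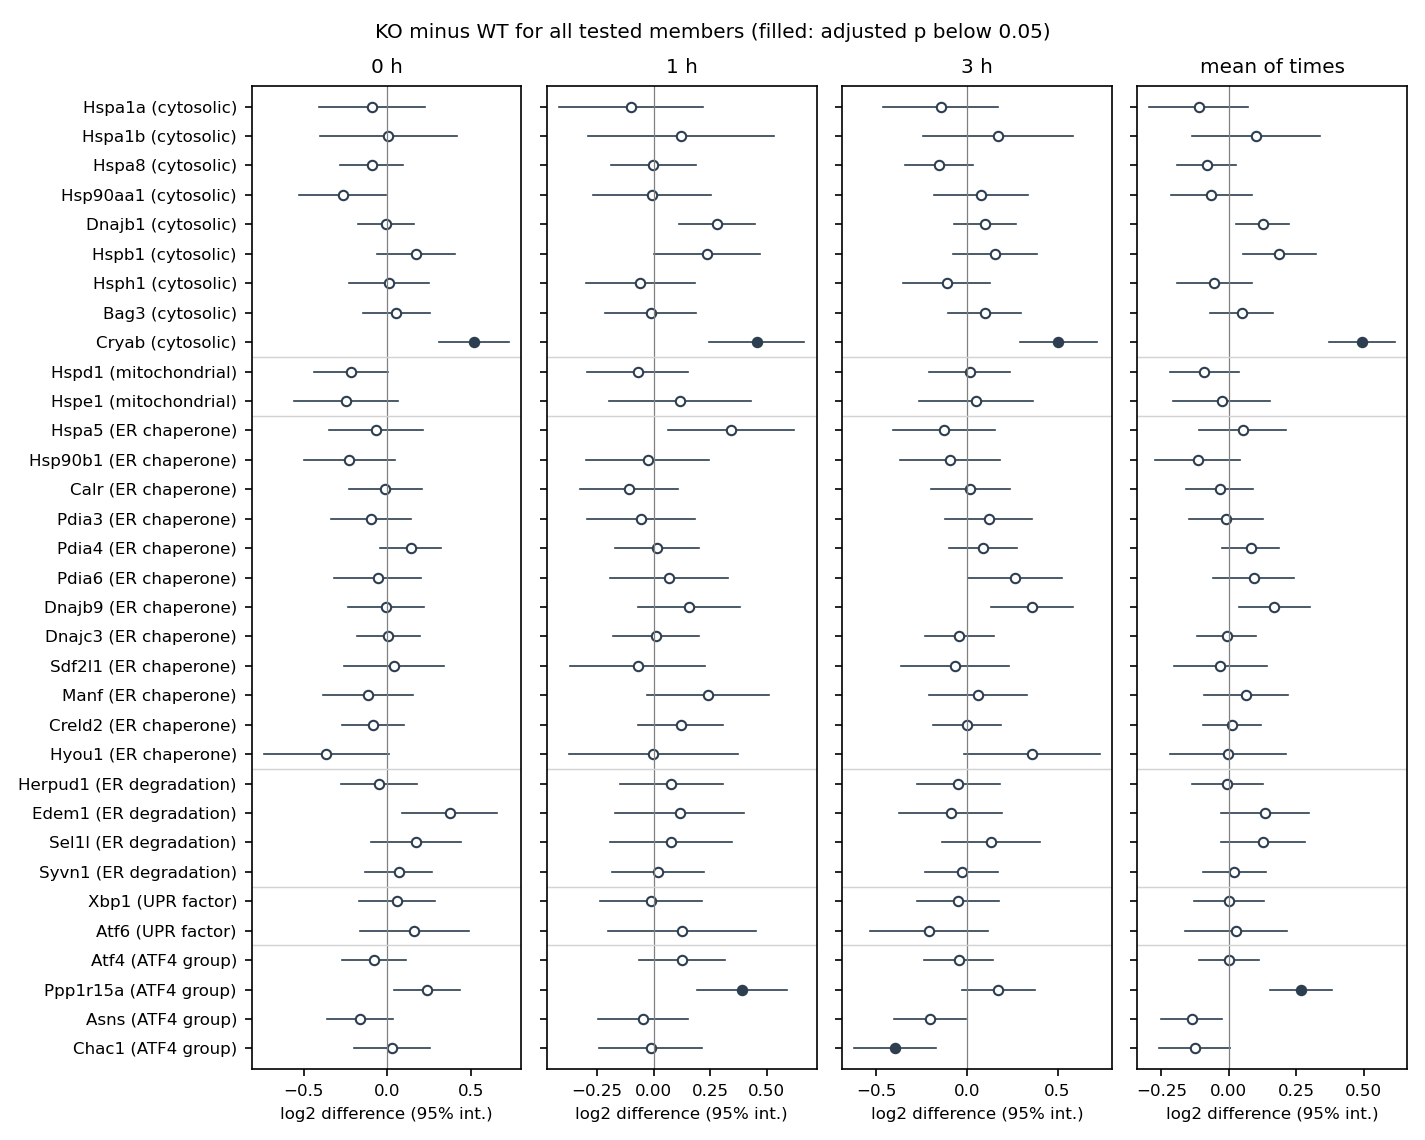
Log2 difference of KO minus WT cells with its 95% interval for the 33 tested genes at 0, 1 and 3 h and in the mean of the times. Filled points have an adjusted p below 0.05: Cryab in all panels, Ppp1r15a at 1 h and in the mean, and Chac1, to the left, at 3 h.

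The difference between the genotypes' TPA responses was called for 0 of the 33 genes at 1 h (all genes, 0.0275%, all of them higher) and 0 at 3 h (all genes, 0.358%, with 0.275% higher and 0.0826% lower) with limma, and for 0 under every alternative run. At an unadjusted p below 0.05 there were 2 at 1 h, Dnajb1 and Hspa5, and 4 at 3 h, Dnajb9, Hyou1, Edem1 and Chac1. The corresponding shares of all genes were 5.87% and 10.0%.

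Other genes of the same pathways were read from lists made by known function, with none of the 38 among them. Of 46 further heat shock and co-chaperone genes tested, 2 rose and 5 fell at 3 h in KO cells and 2 rose and 7 fell in WT cells. These are 15.2% in KO and 19.6% in WT cells, near the 18.4% and 16% of all genes called. At 1 h 0 of the 46 were called in either genotype, with 3 in KO and 7 in WT cells at an unadjusted limma p below 0.05, as against 15.9% and 13.2% of all genes. Those that rose at 3 h were Cct7 and Fkbp5 in KO and Grpel1 and Hsbp1 in WT cells, named after their values were seen. Dnajb4, of another HSP40 protein, fell at 3 h by 1.26 ± 0.20 in KO (adjusted p = 7.65e-05) and by 1.03 ± 0.20 in WT cells (adjusted p = 0.000877). Hspa2, of an HSP70 protein best known in the testis, fell by 0.74 in KO and 0.71 in WT cells, and the co-chaperone gene Bag2 fell by 0.59 in KO and 0.61 in WT cells. Hsf2, of a second heat shock factor, fell by 0.57 in WT cells and had −0.32 in KO cells (adjusted p = 0.22). In the series matrix Dnajb4 had −0.60 in KO and −0.55 in WT cells, Bag2 −0.37 in KO cells and Hsf2 −0.23 in WT cells, all called. With the mean of all kept probes Dnajb4 had −0.75 in KO and −0.60 in WT cells and Hspa2 −0.46 in WT cells, and under scaling to the median of all probes Hspa2, Bag2 and Hsf2 had −1.14, −1.04 and −0.93 in WT cells. The Bag2 fall in KO cells was lost without KO 3 h replicate 1 (−0.37), and the Hsf2 fall in WT cells without WT 0 h replicate 2 or 3 or WT 3 h replicate 1 or 3, with no detection filter and with the mean of all kept probes (−0.29).

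Of 48 further ER folding and transport genes, 1 rose and 1 fell at 3 h in each genotype, 4.17% of the list, against 18.4% of all genes called in KO and 16% in WT cells. At 1 h 0 of the 48 were called, and 1 in KO and 1 in WT cells had an unadjusted limma p below 0.05, against 15.9% and 13.2% of all genes. Wfs1, of an ER membrane protein lost in Wolfram syndrome, rose by 0.44 in KO and by 0.38 in WT cells at 3 h, though under scaling to the median of all probes the WT difference turned to −0.030 and the KO difference of 0.28 was not called (adjusted p = 0.194). In the series matrix Wfs1 had 0.27 in KO and 0.21 in WT cells, both called. At 3 h Wfs1 was also called higher in KO than in WT cells, by 0.42 (0.26 in the series matrix), a call lost in 2 of 27 alternatives. Tmed10, of a cargo receptor between ER and Golgi, fell by 0.36 in KO cells and had −0.27 in WT cells (adjusted p = 0.0545), and Kdelr3, of a receptor that retrieves ER chaperones, fell by 0.33 in WT cells and had −0.23 in KO cells (adjusted p = 0.101). The Tmed10 call was lost without KO 0 h replicate 2 and with the mean of all kept probes (−0.08), the Kdelr3 call without WT 0 h replicate 3 or WT 3 h replicate 3, and the Wfs1 call in WT cells without WT 0 h replicate 3. Kdelr3 had −0.73 in WT cells when arrays were scaled to the median of all probes.

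Among 15 further sensors and factors of the unfolded protein response, 2 rose and 1 fell at 1 h in each genotype, and at 3 h 3 rose and 2 fell in KO and 2 rose and 0 fell in WT cells. At 1 h this is 20.0% in each genotype, against 5.41% of all genes called in KO and 3.38% in WT cells, and at 3 h 33.3% in KO and 13.3% in WT cells, against 18.4% and 16%. Trib3, of a pseudokinase that is a target of CHOP, fell by 0.77 in KO and by 0.61 in WT cells at 1 h, and at 3 h Trib3 and Creb3 fell in KO cells and Nupr1 rose in WT cells, named after their values were seen. The risers at 1 h were Atf3 and Ddit3, of stress-responsive transcription factors. Atf3 rose by 2.29 ± 0.16 in KO (adjusted p = 1.71e-09) and by 1.504 ± 0.16 in WT cells (adjusted p = 1.55e-06). In the series matrix these rises were 0.88 in KO and 0.50 in WT cells, both called. The KO level at 1 h was higher than WT by 0.74 (adjusted p = 0.0143, lost without WT 1 h replicate 1 or 2 or KO 1 h replicate 2 and under scaling to the median of all probes, 0.46, and 0.37 in the series matrix), and the difference of responses, 0.79 ± 0.23, was not called (adjusted p = 0.479). Ddit3, of the factor CHOP, rose at 1 h by 1.12 in KO and by 1.22 in WT cells, and its 3 h rise was 0.82 in KO and 1.12 in WT cells. In the mean of the times Ddit3 was higher in KO cells by 0.52 ± 0.09 (adjusted p = 0.000758). It was already called higher in KO cells at 0 h, before TPA, by 0.65. Under scaling to the median of all probes the WT rise at 3 h was 0.69 and the mean genotype difference 0.31, both called. The 0 h genotype difference was then 0.34 and not called (adjusted p = 0.0978). Ern1, of the sensor IRE1α, had a 3 h difference of 0.92 ± 0.15 in KO (adjusted p = 0.000124) and 0.38 ± 0.15 in WT cells (adjusted p = 0.0985), and the KO difference was 0.35 in the series matrix, still called. Creb3l2, of a membrane-bound factor of the secretory pathway, had 0.80 ± 0.11 in KO (adjusted p = 1.78e-05) and 0.24 ± 0.11 in WT cells (adjusted p = 0.16). The response differences of Ern1 and Creb3l2 at 3 h, 0.54 and 0.56, were not called (adjusted p = 0.406 and 0.182). At 3 h Creb3l2 was itself called higher in KO than in WT cells, by 0.41. That call was lost with the mean of all kept probes (0.22, adjusted p = 0.153).

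Of 30 further ATF4 targets, 2 rose and 1 fell at 1 h in each genotype, and at 3 h 3 rose and 4 fell in KO and 4 rose and 2 fell in WT cells. At 1 h this is 10.0% in each genotype, against 5.41% of all genes called in KO and 3.38% in WT cells, and at 3 h 23.3% in KO and 20.0% in WT cells, against 18.4% and 16%. Besides the genes described next, Sesn2 rose at 1 h in both genotypes, and at 3 h Mars1, Mthfd2 and Slc6a9 fell in KO cells, Sars rose and Iars fell in WT cells, all named after their values were seen. Ddit4 (REDD1), an inhibitor of mTORC1 signalling, rose at 1 h by 1.08 ± 0.12 in KO (adjusted p = 2.77e-06) and by 1.46 ± 0.12 in WT cells (adjusted p = 3.88e-08), and its 3 h rise was 0.86 in KO and 1.41 in WT cells. At 3 h Ddit4 was called lower in KO than in WT cells, but 15 of 27 alternatives lost that call (differences of −0.47 to −0.38). Slc7a11, of the cystine transporter xCT and also an NRF2 target, rose at 3 h by 1.38 ± 0.13 in KO (adjusted p = 8.01e-08) and by 0.94 ± 0.13 in WT cells (adjusted p = 2.31e-05). In the series matrix Slc7a11 had 0.56 in KO and 0.36 in WT cells, and with the mean of all kept probes 0.67 in KO and 0.45 in WT cells, all called. Slc38a2, of the amino acid transporter SNAT2, fell by 0.58 in KO and by 0.74 in WT cells at 3 h, and Cars, of cysteinyl-tRNA synthetase, rose by 0.66 in KO and by 0.59 in WT cells. In WT cells at 3 h Slc38a2 had −0.49 with the mean of all kept probes and −1.17 under scaling to the median of all probes. Slc38a2 was also the gene that fell at 1 h, by 0.44 in KO and by 0.68 in WT cells. With the mean of all kept probes neither 1 h fall was called (−0.21 in KO, adjusted p = 0.205, and −0.30 in WT cells, adjusted p = 0.066). The KO call at 1 h was also lost without any KO 0 h array or without KO 1 h replicate 2 or 3. Cars had 0.31 in KO and 0.28 in WT cells in the series matrix, and 0.25 in KO and 0.09 in WT cells with the mean of all kept probes. The Cars call in WT cells was lost without WT 0 h replicate 3 or WT 3 h replicate 1, with the mean of all kept probes and under scaling to the median of all probes.

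**Figure D4:**
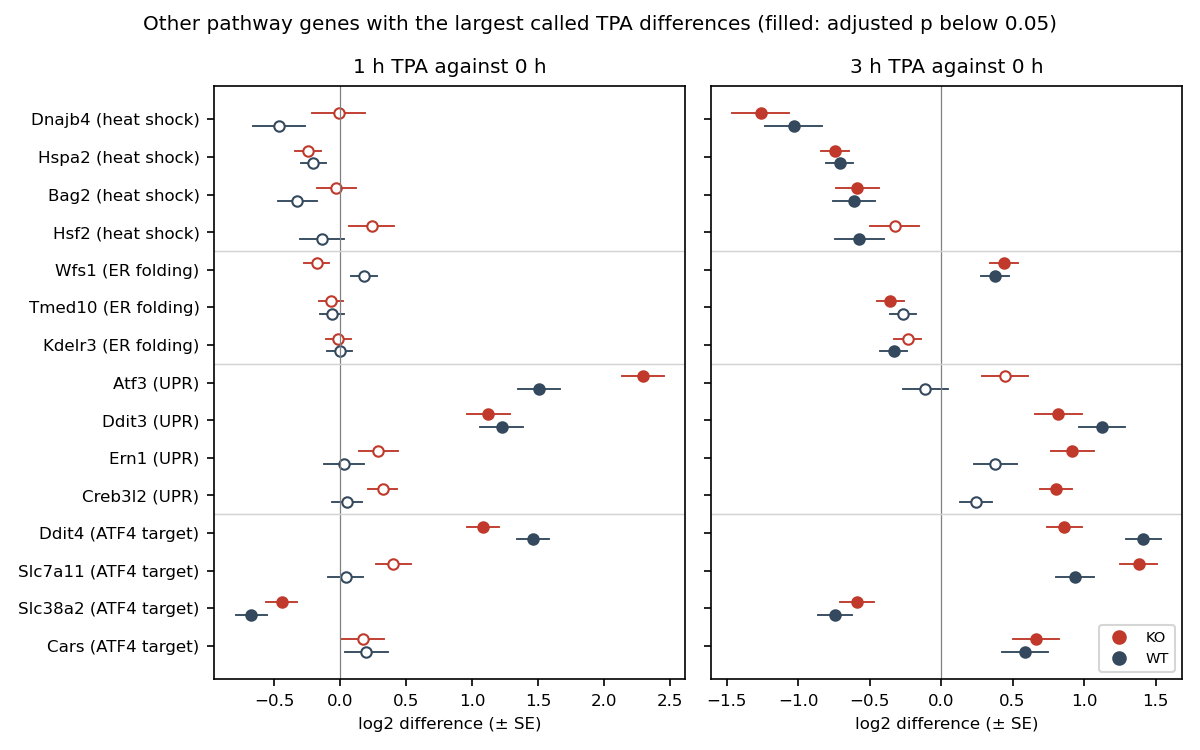
Log2 difference ± SE at 1 h (left) and 3 h (right) of TPA against 0 h for 15 further pathway genes, KO in red above WT in blue, grouped by list. Filled points have an adjusted p below 0.05: Atf3, Ddit3 and Ddit4 stand to the right at 1 h, and the heat shock genes Dnajb4, Hspa2 and Bag2 stand to the left at 3 h in both genotypes.

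Counts of epithelial, macrophage and blood, and neural and glial markers that rose with TPA at 3 h are given here. Falls and the endothelial and muscle markers are not given, and the part of any marker in the results was not tested. Counts of rises alone cannot show whether a marker list moved up or down as a whole, and no gain of a cell type is read from them. The sums below are of raw intensity with undetected probes included, so they also follow the brightness of each array. Of 5 tested epithelial markers 2 rose in each genotype, of 6 macrophage and blood markers 2 rose in each, and of 4 neural and glial markers 2 rose in KO and 0 in WT cells. Of all genes 8.25% in KO and 7.81% in WT cells were called higher at 3 h. Summed raw intensity at 3 h was 968 to 1047 in KO and 974 to 1007 in WT arrays for the 8 epithelial probes, 1649 to 1851 in KO and 1657 to 1827 in WT arrays for the 10 macrophage and blood probes, and 1081 to 1390 in KO and 1029 to 1104 in WT arrays for the 7 neural and glial probes. At 0 h the epithelial sum was 887 to 1044 in KO and 999 to 1034 in WT arrays, the macrophage and blood sum 1501 to 1939 in KO and 1917 to 2130 in WT arrays, and the neural and glial sum 1053 to 1219 in KO and 1128 to 1320 in WT arrays. At 3 h 4 of the 8 epithelial and 6 of the 10 macrophage and blood markers were detected on all arrays of each genotype, and of the 7 neural and glial markers 4 in KO and 3 in WT cells, while Epcam, Ptprc and Sox10 were among those not so detected in any group.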

How the data were processed

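Total RNA of 18 fibroblast samples (6 groups of 3) was read on Illumina mouse arrays. The authors deposited a table with 1 intensity and 1 detection p-value per probe and array, and per the file headers the intensities were not normalized. The detection p-value entered as the authors deposited it. A second deposited table, the authors' series matrix, gives normalized log2 values with a rank correlation of 1 to the intensities and served as an alternative. How the scanner data were summarised is not stated.

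The neqc function (limma 3.58.1, R 4.3.3) corrected background by normexp, added 16, quantile normalized and took log2. Probes with detection p below 0.05 on at least 3 arrays were kept (20239), 17288 of them with 1 gene symbol. Each of 10902 genes was read from its brightest kept probe, although 4238 genes had several. One limma model held the 6 group means of all arrays and left 12 residual degrees of freedom for the moderated variances. Each of 12 comparisons was adjusted over all genes. Code was tested on simulated data. The number of arrays limits the precision.

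The genes, lists and tests were chosen with earlier results of these data known. Values are given on every array for genes called anywhere (at most the 16 with the largest called differences) and for Hspa5, Hspa1a, Hspa1b, Atf4 and Xbp1. From each further list up to 4 called genes with the largest TPA difference are described. Alternatives were the series matrix, quantile normalization without background correction, scaling to the median of all probes or of tested genes, a stricter filter (p below 0.01 on 9 arrays), no filter, the mean of kept probes, a variance trend, a replicate block and each array left out. Promoters came from RefSeq tables on GRCm38.p6.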

Additional observations from a re-analysis of the deposited data

Results flagged for a closer look

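At 3 h of TPA the Chac1 arrays lay on opposite sides of their 0 h arrays in the 2 genotypes. All KO 3 h arrays (8.84, 9.18 and 9.26) lay below all KO 0 h arrays (9.31, 9.41 and 9.31), while all WT 3 h arrays (9.47, 9.42 and 9.57) lay above all WT 0 h arrays (9.31, 9.23 and 9.40). The difference was -0.25 in KO cells (adjusted p = 0.134) and 0.17 in WT cells (adjusted p = 0.322), and neither was called. The difference of the responses was -0.42 (95% interval -0.74 to -0.10), with an unadjusted p of 0.0127 and an adjusted p of 0.366, so it was not called.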

How the results depend on the processing

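All 35 calls of the listed genes kept their direction under every alternative, and 35 held with the replicate block, with the variance trend, with tested genes scaled to 1 median and with the mean of kept probes. The series matrix and quantile normalization without background correction each ended 3, those of Hspa1a at 1 h in both genotypes and of Hyou1, and so did no detection filter. All calls that could be tested under the stricter filter (31 of 35) held. The others were the calls of Hspa1a, whose probe did not pass that filter. Scaling to the median of all probes left 18. With it the median difference of all genes was -0.23 and -0.12 in KO cells at 1 h and 3 h and -0.24 and -0.31 in WT cells. Relative to that shift all 35 kept their direction, but taking the shift out largely undoes this scaling, so it is no separate check. Under it the called genes numbered 4 in KO 3 h against 0 h, 2 in KO 3 h against 1 h, 23 in WT 3 h against 0 h, 4 in KO against WT at 0 h, 0 at 1 h, 0 at 3 h and 9 in the mean of the times, against 7, 4, 6, 1, 2, 2 and 2 as reported. The KO against WT mean had 6 calls with the series matrix, 6 with quantile normalization without background correction and 5 with the variance trend. Under scaling to the median of all probes Wfs1 at 3 h in WT cells turned to -0.030 and Hspa2 in the KO against WT mean to -0.016. The cause was not tested.

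Leaving out 1 array at a time gave 2 to 4 called genes for KO 1 h, 6 to 8 for KO 3 h and 4 to 6 for KO 3 h against 1 h, 2 to 3 for WT 1 h, 5 to 8 for WT 3 h and 2 to 5 for WT 3 h against 1 h. Between genotypes it gave 0 to 2 at 0 h, 0 to 2 at 1 h, 1 to 3 at 3 h, 2 to 3 in the mean, and 0 to 0 for both response differences. Same-numbered arrays of different groups correlated at -0.08 to 0.43 in their deviations from the group means (median 0.04), and 12 of 18 arrays correlated best with an array of their own number, which is a hint from the data and not from the design. The replicate block changed no call of the listed genes. A slide block was not run because the files used here name no slides. Probes not detected on every array (Hspa1a, Hspa1b, Manf and Atf6 among the tested genes) limit what can be seen, and the labels do not say whether arrays are separate cultures.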
